A study of Rattus norvegicus with 6 samples.

Results

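N-glycosylation is the attachment of a branched sugar chain to asparagine residues of proteins that enter the endoplasmic reticulum (ER). The chain is first built on the lipid dolichol by the Alg enzymes, partly on the cytosolic face of the ER membrane and partly in its lumen. The oligosaccharyltransferase then moves it as a block to the nascent protein, and glucosidases and mannosidases trim it while the protein folds. In pituitary cells the pathway serves secreted and membrane glycoproteins, including receptors and components of secretory granules.

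The genes described here are 42 genes of this pathway, given as a list of symbols, in GH4C1 cells. Each was represented by the probe set selected by the highest mean log2 signal over the 6 arrays among those annotated to that symbol alone, so the level of a probe set decided which one was used. A probe set was found for 39 of the 42 genes, out of 14218 genes with such a probe set on the array. Alg6, Alg13 and Gfpt1 had none here. Man1a1, a Golgi mannosidase, lay below the filter on dim signals, with signals of 0.760, 14.1 and 7.76 in controls and 14.1, 9.32 and 3.59 in mutant cells. The remaining 38 were tested. The rule forms 3 groups to be compared: 12 subunits of the oligosaccharyltransferase, 18 genes of dolichol-glycan assembly and 6 of glycan trimming. A further 2 Golgi transferases that begin the branching of complex glycans and 4 enzymes of sugar donor synthesis are described apart.

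GH4C1 is a clonal rat pituitary tumour line of the somatolactotroph kind, which makes growth hormone and prolactin. All 6 cultures were exposed for 16 h to lentiviral particles at a multiplicity of infection of 5 and then grown for 4 days. In 3 cultures the vector carried POU1F1(R271W), a mutant form of the transcription factor of growth hormone and prolactin cells, described as dominant negative in the series title, followed by an IRES and EGFP. In the 3 control cultures the vector carried EGFP alone, and the PGK promoter drove both constructs. All cells keep their own Pou1f1 gene. RNA of each culture was read on 1 Affymetrix rat array. Replicates are labelled biological, with no word on how the cultures were separated. The values are MAS5 signals, on a linear scale, with 1 value for each probe set. The labels do not give the share of cells transduced, so a change in all cells and a larger change in some of them cannot be told apart.

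The arrays carried the cell identity on the labels: Gh1, Prl and Pou1f1 summed to signals of 12635 to 13702 in controls and 10491 to 12372 in mutant cells, and 2 of the 3, Prl and Pou1f1, were lower. By contrast, 7 markers of other pituitary cell types summed to 77.1 to 126 and 97.8 to 106, and the 3 of them that were tested did not pass. The 5 endothelial and immune markers summed to 13.1 to 30.1 and 20.1 to 37.5, and all lay below the filter on dim signals. Of these, Cd3e was higher without overlap (1.45 ± 1.14 against 11.8 ± 2.11, SD, n = 3 each). The 6 fibroblast markers summed to 216 to 239 and 182 to 208, most of it from Thy1, the 1 member that was tested, which did not pass. Pdgfra, below the filter, was lower without overlap (13.1 ± 2.00 against 3.52 ± 1.21). Median signals of all probe sets were 22.4 to 22.9 on control arrays and 25.5 to 26.9 on mutant arrays. The hybridisation spikes read 0.23 higher on the log2 scale on mutant arrays, without overlap. For beta-actin, the 3' signal divided by the 5' signal came to 1.82 ± 0.0076 (SD, n = 3) in controls and 1.96 ± 0.099 (n = 3) in mutant cells, also without overlap, while the poly-A spikes and both GAPDH ratios overlapped. The part of these array measures in the results below was not tested.

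Among the 3 groups compared, the oligosaccharyltransferase had the most genes lower in mutant cells. Of its 12 subunit genes 8 fell and 1 rose, against 3 of 16 assembly genes that fell and 0 that rose, and 2 of 5 trimming genes that fell and 0 that rose (limma, adjusted p under 0.05). Over all 38 tested genes 15 fell and 1 rose. Among all 10143 genes tested, 8.98% fell and 9.87% rose. Brighter genes were called lower more often: among 3536 genes with a mean signal of at least 200, 19.7% fell and 11.2% rose. At that brightness 8 of 11 oligosaccharyltransferase genes, 2 of 6 assembly genes and 2 of 3 trimming genes fell. The median log2 fold change was -0.42 for the oligosaccharyltransferase, -0.01 for assembly and -0.34 for trimming, beside 0.06 over all tested genes and -0.04 over the brighter ones. All 3 mutant arrays lay below all 3 controls for 17 of the 38 genes, and above them for 1, compared with 16.6% and 21.2% of all tested genes and with 30.7% and 20.2% of the brighter ones. Without the intensity trend in the variance model 8 of the 38 genes fell and 0 rose. Over all 18625 tested probe sets that fit called 431 lower and 634 higher, against 1344 and 1596 with the trend.

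**Figure D1:**
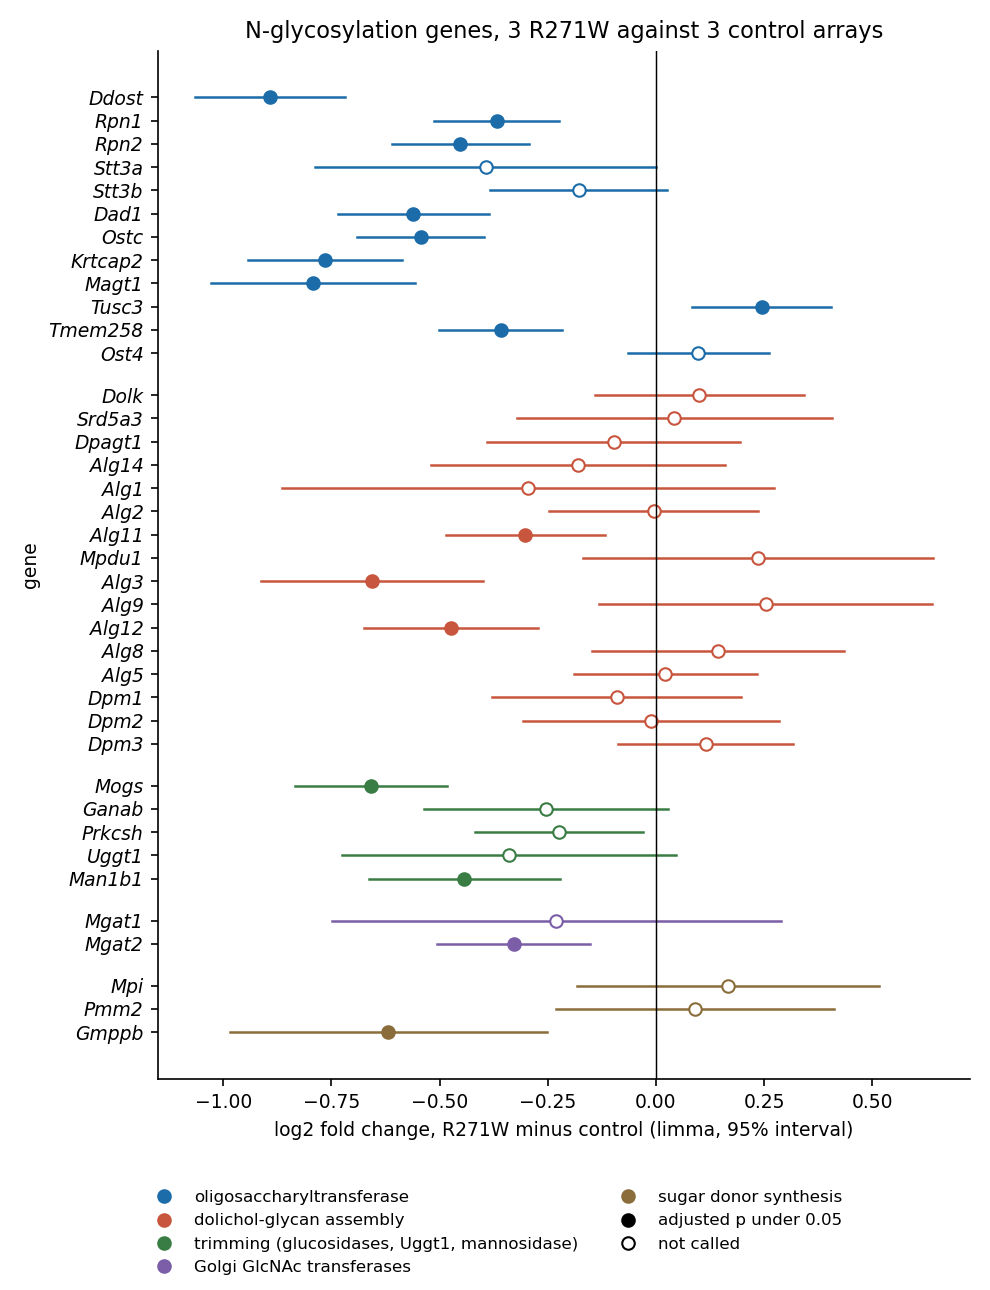
Log2 fold change of each tested gene (x axis, mutant minus control, limma) with its 95% interval, by gene (y axis) and coloured by step of the pathway; filled points passed an adjusted p of 0.05. The filled points of the oligosaccharyltransferase run from -0.89 (Ddost) to 0.24 (Tusc3), and 13 of the 16 assembly genes are open points around 0.

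Because a common scaling of an array cancels in a difference between genes on it, the groups were also set against each other within arrays. The mean log2 shift of the 12 oligosaccharyltransferase genes minus that of the 16 assembly genes was 0.02, 0.00 and -0.02 on the control arrays, where the controls' own mean defines 0. On the mutant arrays it was -0.34, -0.42 and -0.25. The groups of arrays did not overlap. For trimming minus assembly the values were 0.00, 0.09 and -0.09 in controls and -0.21, -0.35 and -0.37 in mutant cells, again without overlap. Oligosaccharyltransferase minus trimming overlapped between the groups, with a mean of -0.03 in mutant cells. These differences are descriptions and carry no test, since the groups of genes were formed with results of these arrays known. A shift that depends on brightness does not cancel, and the groups differed in brightness. A mean signal of at least 200 was reached by 11 of the 12 oligosaccharyltransferase genes, 6 of the 16 assembly genes and 3 of the 5 trimming genes. The part of brightness in these differences was not tested.

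**Figure D2:**
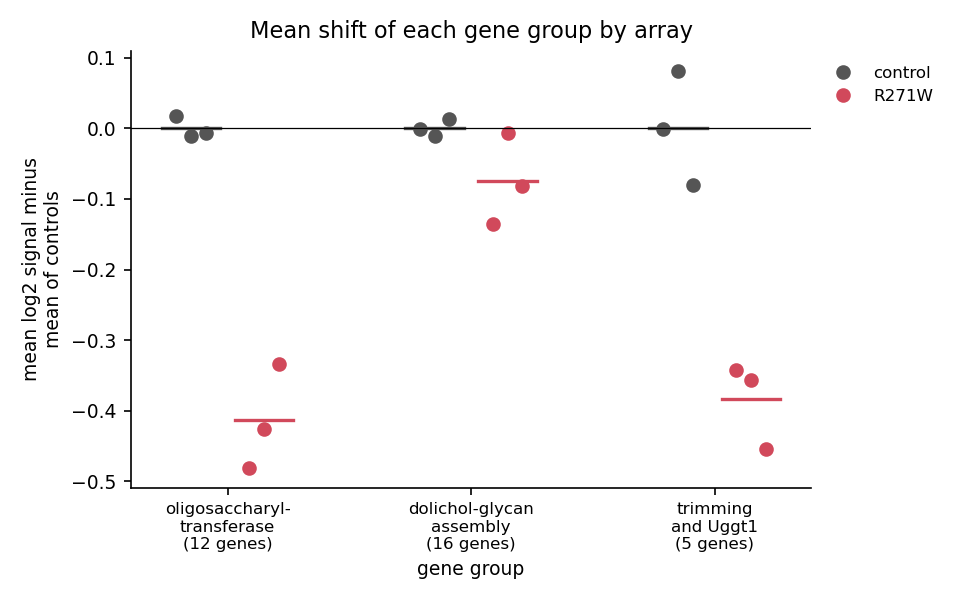
Mean log2 signal of each group of genes on each array minus the mean of the 3 controls (y axis), by group (x axis); points are arrays and bars are group means. Mutant arrays lie at -0.48, -0.43 and -0.33 for the oligosaccharyltransferase and at -0.14, -0.01 and -0.08 for assembly.

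Promoters were searched because many of these genes moved together. RefSeq promoters of the GRCr8 assembly (250 bases before to 50 after the start site) were matched to 39 of the 42 genes, 3 of which had more than 1 entry; Tusc3, Alg11 and Krtcap2 were not matched. Of 11 motifs searched on both strands, GACGTG, core letters of the elements bound by the ER stress factors ATF6 and XBP1, was in 7 promoters of the list. It was in 5 of the 13 matched genes that fell (Rpn1, Dad1, Tmem258, Mogs and Man1b1) and in 1 of the 22 tested genes without a call (Alg14), while 6.75% of 21851 protein-coding promoters of the same length held it. The remaining match was Gfpt1, which has no probe set here. This motif was singled out after its matches were seen. A gene of the list counted when any of its promoter entries matched, while shares over all were counted per promoter. Those shares also include genes that were not tested here, so the 2 are not like for like. The longer UPR element TGACGTGG, which contains those letters, matched 0 genes of the list against 0.604% of all promoters. The complete ER stress element, CCAAT and CCACG spaced by 9 bases, also matched 0 genes, against 0.0870%. Its form with a shorter end (0.352% of all promoters) and ER stress element II (0.0595%) matched 0 genes of the list too. The same held for ACGTGTC (0 genes, 1.56% of all) and the cyclic AMP response element (0 genes, 2.10%). CCAAT alone was in 7 of the 13 matched genes that fell and in 4 of the 22 without a call (38.0% of all promoters). CCACG alone was in 8 of the 13 and 11 of the 22 (35.5% of all). A larger share among the genes that fell was thus not particular to GACGTG. The palindrome CACGTG, which shares the letters ACGTG, was in 5 promoters (7.02% of all), of which 1, Tmem258, belonged to a gene that fell. TATNCAT, a form of the letters bound by POU1F1, was in 2 promoters (8.72% of all), those of Mpi and Alg13, and in none of a gene that fell. The windows that follow show the GACGTG matches of the genes that fell, 5' to 3' on the strand of the gene, with the match in capitals (CACGTC where it lies on the other strand). A match is a description of the letters and does not show binding.
Rpn1, chr4:122100803-122100888, + strand, match 133 bases before the start site: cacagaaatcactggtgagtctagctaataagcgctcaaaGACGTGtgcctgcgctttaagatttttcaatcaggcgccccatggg
Dad1, chr15:31667275-31667360, - strand, match 161 bases before: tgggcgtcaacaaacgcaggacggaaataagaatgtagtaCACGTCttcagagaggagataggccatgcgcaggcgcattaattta
Tmem258, chr1:216274423-216274508, + strand, match 144 bases before: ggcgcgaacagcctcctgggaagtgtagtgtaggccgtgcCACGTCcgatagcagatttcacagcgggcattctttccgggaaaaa
Mogs, chr4:117179191-117179276, + strand, match 104 bases before: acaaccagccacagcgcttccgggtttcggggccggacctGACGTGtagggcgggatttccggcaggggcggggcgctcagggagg
Man1b1, chr3:28541841-28541923, + strand, match 213 bases before: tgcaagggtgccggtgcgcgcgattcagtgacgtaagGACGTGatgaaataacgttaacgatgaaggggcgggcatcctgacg

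The oligosaccharyltransferase exists as complexes built on the catalytic subunit STT3A or on its paralog STT3B, which share a core of smaller subunits. Of the 6 genes of the shared core 5 fell. Ddost, which encodes the OST48 subunit, had signals of 1484, 1626 and 1469 in controls and 763, 808.9 and 900.1 in mutant cells. Every mutant array was far below every control, and its log2 change, -0.89 with an SE of 0.081 (limma adjusted p = 1.21e-05), was the furthest from 0 among the 38 genes. Rpn1 and Rpn2 encode the ribophorins, the subunits first purified with membrane-bound ribosomes. Rpn1 read 3069, 3051 and 2938 in controls and 2430, 2171 and 2426 in mutant cells, which is -0.37 on the log2 scale (SE 0.067, adjusted p = 0.00225). Rpn2 read 2329, 2341 and 2041 against 1562, 1663 and 1674, a change of -0.45 in log2 signal (SE 0.073, adjusted p = 0.000975). In both ribophorin genes the groups were apart, though control replicate 3 of Rpn2 lay below the other controls. Without the intensity trend neither passed (adjusted p = 0.0869 for Rpn1 and 0.0656 for Rpn2).

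Dad1 encodes a small core subunit whose loss leads to cell death. Its signals were 656.1, 620.1 and 686.3 in controls and 425.8, 447.9 and 456.6 in mutant cells, and it fell by 0.56 on the log2 scale (SE 0.081, adjusted p = 0.000451). Tmem258, another small membrane subunit, read 1486, 1490 and 1535 against 1169, 1148 and 1200, a change of -0.36 in log2 signal (SE 0.066, adjusted p = 0.00233). The arrays of each group lay close together for Tmem258, and its adjusted p without the intensity trend was 0.0748. Ost4, a miniature subunit that joins the catalytic subunit to the complex, was the member of the core without a call. It read 1352, 1316 and 1193 in controls and 1439, 1397 and 1292 in mutant cells, with overlap; the log2 change was 0.10 with a 95% interval of -0.06 to 0.26 (adjusted p = 0.431). A fall of the size seen for the other 5 lay outside that interval, and the other Ost4 probe set read 0.00 (adjusted p = 0.984).

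The subunits found only in STT3A complexes are encoded by Ostc and Krtcap2, which link the complex to the translocation channel, and both fell. Ostc read 1469, 1426 and 1494 in controls and 981.4, 989.1 and 1042 in mutant cells, which is -0.54 on the log2 scale (SE 0.068, adjusted p = 0.000155). Krtcap2 read 1232, 1092 and 1301 against 749.6, 682.7 and 696.4, a change of -0.76 in log2 signal (SE 0.083, adjusted p = 4.48e-05). The gap between the groups exceeded the spread within either group for both genes.

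The subunits found only in STT3B complexes are the oxidoreductases encoded by the paralogs Magt1 and Tusc3, which act on cysteines near glycosylation sites and substitute for each other in the complex. They went in opposite directions. Magt1 read 450.7, 460.2 and 533.2 in controls and 245.2, 275.3 and 315.4 in mutant cells, and fell by 0.79 on the log2 scale (SE 0.110, adjusted p = 0.00032). Tusc3 read 780.4, 783.3 and 819.6 against 925.7, 998.4 and 901.2, and rose by 0.24 (SE 0.074, adjusted p = 0.0396). Each gene's groups were apart, but the rise of Tusc3 was small and its call did not hold under most settings. Its log2 fold change was 0.05 under median centring (adjusted p = 0.752), 0.16 under 75th percentile centring (0.181) and 0.36 under quantile normalization, where it passed. Over all alternatives its adjusted p reached 0.752 and it passed under 6 of 16. It did not pass without R271W replicate 1 (adjusted p = 0.068) or 2 (0.146), or without control replicate 1 (0.117), 2 (0.12) or 3 (0.0729), or with a replicate block (0.0867). The difference between the paralogs does not depend on a scaling that moves a whole array. Log2 Magt1 minus log2 Tusc3 was -0.79, -0.77 and -0.62 on control arrays and -1.92, -1.86 and -1.52 on mutant arrays, a difference between the groups of -1.04. All mutant arrays lay below all controls, a description of a pair noticed in these data. By itself this difference shows unequal change of the paralogs, not which of them moved. Taken alone, Magt1 was called lower under all 16 alternatives.

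Neither catalytic subunit gene was called on its brightest probe set. Stt3a read 131.1, 126.9 and 119.3 in controls and 72.2, 96.9 and 125 in mutant cells, with mutant replicate 3 among the controls (log2 -0.39, 95% interval -0.79 to 0.00, adjusted p = 0.17). Stt3b read 1509, 1379 and 1282 in controls and 1114, 1163 and 1421 in mutant cells, again with mutant replicate 3 among the controls (log2 -0.18, interval -0.38 to 0.03, adjusted p = 0.237). Without R271W replicate 3 both passed, at -0.59 (adjusted p = 0.0348) for Stt3a and -0.28 (0.0254) for Stt3b, and both also passed under median centring (0.0413 and 0.0186). A dimmer Stt3b probe set passed with all arrays. It read 364.6, 414.4 and 340.7 in controls and 282.1, 273 and 305.6 in mutant cells, without overlap (log2 -0.38, SE 0.102, adjusted p = 0.0222). The dimmer Stt3a probe set did not pass (log2 -0.26, adjusted p = 0.557). These values set no difference between the catalytic paralogs, whose log2 ratio within arrays overlapped between the groups.

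**Figure D3:**
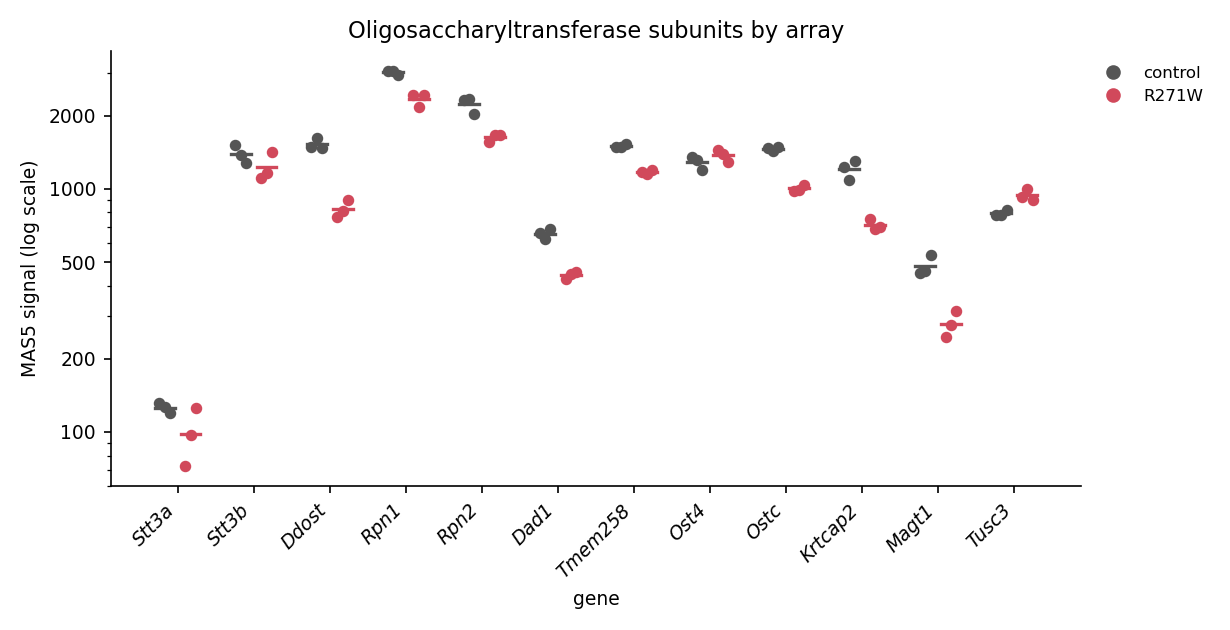
MAS5 signal (y axis, log scale) of the 12 oligosaccharyltransferase genes (x axis) on each array; points are arrays and bars are means of 3 control or 3 mutant arrays. Ddost drops from 1469 to 1626 in controls to 763 to 900.1 in mutant cells, Magt1 falls and Tusc3 lies higher, and Stt3a, Stt3b and Ost4 overlap; levels of different genes are not comparable on this array.

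Assembly of the dolichol-linked glycan begins with the lipid carrier and the sugars added on the cytosolic face. Srd5a3 and Dolk, which make dolichol and phosphorylate it, had log2 fold changes of 0.04 and 0.10 and did not pass. Dpagt1, which attaches the first sugar and is the target of tunicamycin, read 154.1, 138.1 and 145.1 in controls and 156.2, 136.2 and 118.5 in mutant cells, with overlap (log2 -0.10, interval -0.39 to 0.20). Its other probe set, at 3.11 to 25.8 in controls, read 0.84 without passing (adjusted p = 0.484). Alg14, which anchors the next transferase, and the mannosyltransferase genes Alg1 and Alg2 had log2 fold changes of -0.18, -0.30 and 0.00 with overlapping arrays on their brightest probe sets. A dimmer Alg2 probe set read 55.1, 54.7 and 67.7 in controls and 51.1, 35.4 and 37.6 in mutant cells, without overlap, but did not pass (log2 -0.53, interval -1.03 to -0.03, adjusted p = 0.143). The other Alg2 probe sets overlapped, at -0.09 and 0.07. Alg11, which adds the last mannoses on the cytosolic face, was the cytosolic step that fell. It read 630.3, 570.2 and 664.2 in controls and 516.2, 511.8 and 482.1 in mutant cells (log2 -0.30, SE 0.085, adjusted p = 0.0277). Its groups were apart but the call was fragile. Alg11 did not pass under quantile normalization (log2 -0.23, adjusted p = 0.0904), in a fit without the intensity trend (0.147) or in one with a replicate block (0.0583). The call was also lost without R271W replicate 2 (0.0622) or 3 (0.0603) or control replicate 1 (0.0861) or 3 (0.121).

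In the lumen, mannoses are added by Alg3, Alg9 and Alg12. Alg3, which adds the first of them, read 207.7, 244.3 and 208.5 in controls and 145, 144.1 and 129.6 in mutant cells. It fell by 0.66 on the log2 scale (SE 0.119, adjusted p = 0.00218), the largest fall of an assembly gene. Alg12 read 358.3, 341.6 and 358.5 against 258.2, 263.8 and 240.6, which is -0.47 on the log2 scale (SE 0.093, adjusted p = 0.00354). Both genes had groups well apart and were called under all 16 alternatives. Alg9, whose product acts before and after Alg12, did not go with them. It read 74, 59 and 77 in controls and 89.8, 73.7 and 86.1 in mutant cells, with overlap (log2 0.25, interval -0.13 to 0.64, adjusted p = 0.381).

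None of the genes of the glucose steps or of the dolichol-phosphate sugars passed. Alg8, a glucosyltransferase, and Alg5, which makes the glucose donor, had log2 fold changes of 0.14 and 0.02. Dpm1, Dpm2 and Dpm3 form dolichol-phosphate mannose synthase, in which Dpm1 is catalytic and the others hold it in the membrane. Dpm1 read 739, 800.8 and 841 in controls and 597.7, 964.6 and 715 in mutant cells (log2 -0.09, adjusted p = 0.705). Its mutant arrays lay on either side of the controls. A Dpm1 probe set with signals of 12.9 to 26.8 in controls read -0.999 on the log2 scale, with overlap, and did not pass (interval -2.46 to 0.47, adjusted p = 0.363). Another, below the filter, read 13.6, 21.1 and 25.3 against 0.708, 7.47 and 11.3 without overlap, and the remaining one overlapped. With the mean over probe sets the value for Dpm1 was -1.18 (adjusted p = 0.105). Dpm2 read 142.4, 144.5 and 123.8 against 118.4, 140.4 and 149.9 (log2 -0.01), and Dpm3 read 362.2, 348.8 and 367.7 against 362.8, 377.9 and 430.9 (log2 0.12). Mpdu1, needed for use of the dolichol-phosphate sugars, had a log2 fold change of 0.24 with overlap (adjusted p = 0.446). Of the 13 assembly genes without a call, 7 read above 0 and 6 below. On these brightest probe sets the 95% interval of 11 of the 13 lay wholly above the oligosaccharyltransferase median of -0.42. The exceptions were Alg14 and Alg1. The intervals of the dimmer tested Dpagt1, Alg2 and Dpm1 probe sets also reached below that median.

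**Figure D4:**
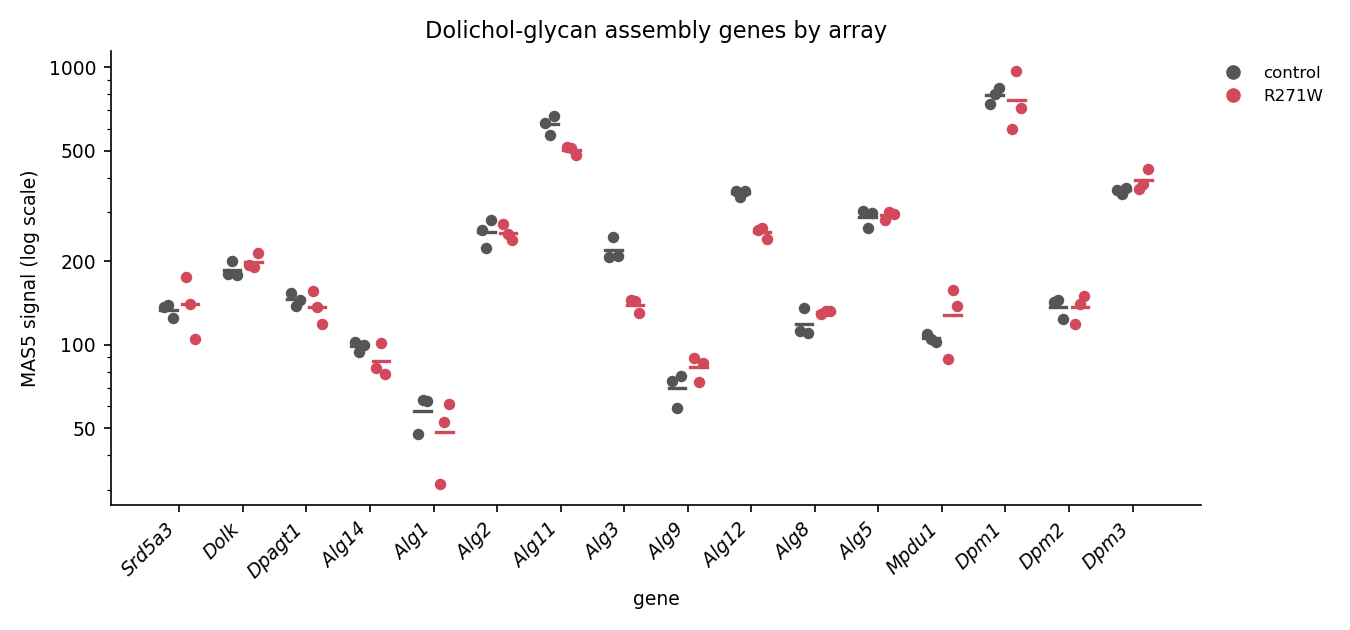
MAS5 signal (y axis, log scale) of the 16 assembly genes (x axis, lipid and cytosolic steps on the left, lumenal steps and donors on the right) on each array; points are arrays and bars are group means. Alg11, Alg3 and Alg12 are the genes whose mutant arrays all lie below the controls.

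Once transferred, the glycan loses its glucoses to glucosidase I and then glucosidase II, and mannosidases remove mannoses. Mogs, which encodes glucosidase I, read 833.6, 795.1 and 892.4 in controls and 561.3, 537.4 and 498.7 in mutant cells. It fell by 0.66 on the log2 scale (SE 0.082, adjusted p = 0.000148) with a wide gap between groups. The glucosidase II subunits gave smaller values that did not pass. Ganab, the catalytic subunit, read 199.8, 189.2 and 168.3 against 180.3, 149 and 139.8 with overlap (log2 -0.25, adjusted p = 0.219). Prkcsh, the subunit that retains the enzyme in the ER, read 729.2, 705.9 and 790 against 695, 646.6 and 568 without overlap (log2 -0.22, interval -0.42 to -0.03, adjusted p = 0.112). Under median centring Ganab (adjusted p = 0.0199), Prkcsh (0.00419) and Uggt1 (0.0477) passed as well, and Prkcsh also did under 75th percentile centring (0.0287). Log2 Mogs minus log2 Ganab was 2.06, 2.07 and 2.41 on control arrays and 1.64, 1.85 and 1.84 on mutant arrays, without overlap. That difference describes a pair noticed in these data and carries no test. It does not show Ganab to be unchanged.

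Uggt1, the folding sensor that puts a glucose back on unfolded glycoproteins, read 125.7, 157.3 and 94.6 in controls and 90.7, 105.8 and 96 in mutant cells. The controls spread widely and overlapped the mutant arrays (log2 -0.34, interval -0.73 to 0.05, adjusted p = 0.23). Man1b1, the mannosidase that marks glycoproteins for degradation, read 377.7, 459.2 and 389.5 against 277.1, 307.5 and 316 (log2 -0.44, SE 0.103, adjusted p = 0.00977). Its groups were apart, although control replicate 2 was high, and without that array the adjusted p was 0.0565. The other Man1b1 probe set was at 3.69 to 20.3 in controls and 12.2 to 32.5 in mutant cells and read 1.12 without passing (adjusted p = 0.294). Averaging it with the bright one turned the value for Man1b1 to 0.34 (adjusted p = 0.547).

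The Golgi enzymes Mgat1 and Mgat2 add the first and the next branch of complex glycans. Mgat2 read 484.8, 495.5 and 488.7 in controls and 388.1, 403.1 and 378.7 in mutant cells, a change of -0.33 in log2 signal (SE 0.082, adjusted p = 0.0145). The controls lay within a narrow range, all above the mutant arrays, and without control replicate 2 the adjusted p was 0.0558. Mgat1 was dim, at 43.3, 44.3 and 42.2 against 36.2, 42 and 33. Its arrays were also apart but it did not pass (log2 -0.23, interval -0.75 to 0.29, adjusted p = 0.576).

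Among enzymes of sugar donor synthesis, Gmppb, which makes GDP-mannose, fell on both of its probe sets. The brighter read 171.7, 130 and 155.7 in controls and 82, 94.6 and 123.8 in mutant cells (log2 -0.62, SE 0.170, adjusted p = 0.0245). The dimmer read 105.9, 91.1 and 108.6 against 59.8, 75.8 and 54.2 (log2 -0.70, SE 0.179, adjusted p = 0.0172). Neither probe set overlapped, but the call of the brighter ended without R271W replicate 1 (adjusted p = 0.0879) or 2 (0.0739) and without control replicate 1 (0.104) or 3 (0.0767). Mpi and Pmm2, which act before Gmppb on the way from fructose-6-phosphate, had log2 fold changes of 0.17 and 0.09 with overlapping arrays and did not pass. The other Pmm2 probe set read -0.20, also with overlap (adjusted p = 0.595).

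Of the 16 calls, 14 held under the deposited scaling and the 3 others; Tusc3 and Alg11 did not. When arrays were left out, 11 calls held whichever array it was, and 8 held under all 16 alternatives. These 8 were Ddost, Dad1, Ostc, Krtcap2, Magt1, Alg3, Alg12 and Mogs. Median centring moves every log2 value by -0.20, so under it 20 of the 38 genes fell and 0 rose, while quantile normalization gave 14 and 1. Over all 18625 tested probe sets, 1344 fell and 1596 rose with the deposited scaling. Median centring gave 3132 lower and 730 higher over all of them, and quantile normalization 1402 and 1400.

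**Figure D5:**
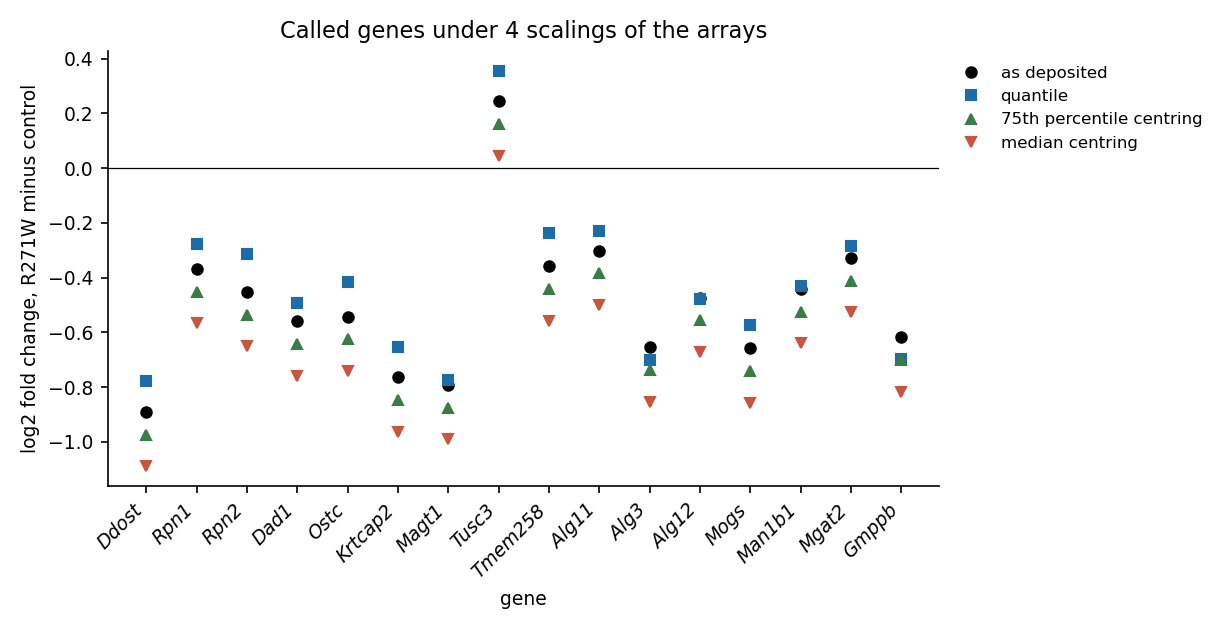
Log2 fold change (y axis, mutant minus control) of the 16 called genes (x axis) with the deposited scaling and 3 others. The 15 genes that fell read below 0 under each scaling, from -0.23 (Alg11, quantile) to -1.09 (Ddost, median centring), and Tusc3 runs from 0.05 to 0.36.

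Other genes of the pathway were taken from a list of 58 symbols, of which 54 had a probe set (Tsta3 is an older name of Gfus) and 50 were tested. Of these 50, 13 fell and 2 rose, with a median log2 fold change of -0.06. Among all 10143 genes tested, 8.98% fell and 9.87% rose. Of the 25 with a mean signal of at least 200, 11 fell and 0 rose, beside 19.7% and 11.2% of all genes that bright. Under median centring 21 of the 50 fell and 2 rose, and without the intensity trend 4 fell and 1 rose. Over all 18625 tested probe sets, median centring gave 3132 lower and 730 higher, and the fit without the trend 431 and 634. Lman1, a lectin that carries glycoproteins from the ER to the Golgi, fell by 0.92 on the log2 scale (SE 0.112, adjusted p = 0.000127), from 392.1, 332.9 and 393.5 to 185.3, 221.7 and 184.7. Its cofactor Mcfd2 fell by 0.50 and the related cargo lectin Lman2 by 0.43. Mlec, a lectin of the ER that binds glucosylated glycans, fell by 0.77, from 187.6, 162.2 and 170.3 to 107.1, 98.9 and 98.8. Edem2, a mannosidase of ER-associated degradation, fell by 0.52, and Ugdh, which oxidises UDP-glucose, by 0.50. The groups of these 6 genes did not overlap. The other 7 that fell were Canx, Calr, Pdia3, Os9, Edem1, Nans and Gnptg, named here to complete the count. The genes that rose were Nagk, a kinase that salvages N-acetylglucosamine, from 111, 110.5 and 127.4 to 172.8, 178.2 and 181.2 (log2 0.61, adjusted p = 0.00421), and Dolpp1, which recycles dolichol pyrophosphate, from 17.8, 22.8 and 41.7 to 52.6, 67.8 and 58.4 (log2 1.21, adjusted p = 0.0187). Alg10, which adds the last glucose, had a log2 fold change of -0.04 (adjusted p = 0.823), and Uggt2, the paralog of Uggt1, one of 0.11 (0.678).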

How the data were processed

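RNA from 6 GH4C1 cultures, 3 control and 3 R271W, was read on Affymetrix rat arrays. The deposited values are intensity values, linear MAS5 signals made by the authors, per the submitters' processing notes. For the MAS5 version and its background settings the entry is: not given in the sources used here. After trimming 2% at each end the arrays had means of 100.03 to 100.04, so each had been scaled. Such scaling can shift dim probe sets between arrays.

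Signals were tested as log2 values without further scaling, two-sided, by lmFit and trended eBayes of limma 3.58.1 (R 4.3.3), with Benjamini-Hochberg adjustment over 18625 probe sets at or above the 40th percentile of mean log2 signal (a signal of 11.2), out of 31042 that are no Affymetrix controls. Of those, 20826 had 1 symbol, 436 several and 9780 none in the table used, and 0 symbols changed on matching Entrez IDs to RefSeq. The fit was tested on simulated data, where it missed most planted changes and made few false calls. Far fewer probe sets were changed there than were called here, so the share missed need not hold for these arrays. A gene without a call is not shown to be unchanged. Figures used matplotlib 3.10.9. Same-numbered replicates were not paired: their deviations from group means correlated at -0.002, 0.01 and -0.02.

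The genes and lists were chosen with earlier results of these data known. The rule for naming allowed all 42 genes, with array values for called genes and complex partners, and up to 6 called genes a direction from the other list. Alternatives were 3 other scalings, 2 other filters, an offset of 3.72, eBayes without the trend or robust, a replicate block, the mean over probe sets and leaving out each array. P-values set the difference between the groups against the spread between cultures, with variances moderated over all tested probe sets along the intensity trend. How the cultures were separated is not given, and the number of arrays limits precision.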

Additional observations from a re-analysis of the deposited data

How the results depend on the processing

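Of the 38 tested genes 15 fell, and between 13 and 20 fell under the alternatives tried other than eBayes without the intensity trend, where 8 did. A replicate block gave 14 lower and 0 higher. Calls over all 18625 tested probe sets moved too. They were 1344 lower and 1596 higher in the main fit and 3132 and 730 under median centring. Without the trend they were 431 and 634, and with a replicate block 1143 and 1336. The 1 gene that rose, Tusc3, was also called under 6 alternatives; the count was 0 under median centring, 75th percentile centring, no filter, eBayes without the trend and the replicate block, and 0 to 1 when an array was left out. In the other list of the pathway the 13 lower genes became 21 under median centring and 4 without the trend, and the 2 higher became 1 without the trend and 1 to 3 with an array left out. The oligosaccharyltransferase median of -0.42 became -0.62 under median centring and -0.51 under 75th percentile centring, and -0.52 to -0.39 with an array left out. The assembly median of -0.0078 became -0.21 and -0.0908 under the same centrings. The trimming median of -0.34 became -0.54 and -0.42 under them, -0.42 under quantile normalization, -0.25 with the mean over probe sets, and -0.47 to -0.26 with an array left out. Man1b1 changed sign (0.34) with the mean over probe sets, in which its dim probe set weighs as much as its bright one. Under the same setting Dpm1 went from -0.09 to -1.18 without passing. Some genes without a call had wide 95% intervals, such as -0.87 to 0.27 for Alg1 and -0.75 to 0.29 for Mgat1. Signal over background was not measured here.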
